A study of Homo sapiens with 6 samples.

Results

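The cytosolic ribosomal protein genes were the 83 genes, of 12499 in the count table, whose symbol is RPL, RPS or RPLP with a number and at most a paralog or chromosome suffix, together with *RPSA*. They comprised 46 genes of the large subunit, the 3 acidic stalk genes *RPLP0*, *RPLP1* and *RPLP2* among them, 31 genes of the small subunit and 6 paralogs of core genes (*RPL3L*, *RPL7L1*, *RPL22L1*, *RPL26L1*, *RPL39L* and *RPS27L*). The rule left out some genes whose products also join the ribosome, such as *FAU* and *RACK1*, and the name rule took no gene for its measured value.

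Ribosomal proteins and ribosomal RNA are assembled in the nucleolus into the small subunit, which reads the mRNA, and the large subunit, which joins the amino acids. Their mRNAs are abundant in growing cells, and most begin with a terminal oligopyrimidine (TOP) tract, an unbroken run of C and T letters that starts at the cap site. The mTOR kinase and the RNA-binding protein LARP1 control translation through this tract, MYC raises transcription of many of these genes, and keratinocytes that proliferate need new ribosomes.

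The libraries came from HaCaT cells, an established immortalized line of human keratinocytes grown from adult skin. LV-NC cells received a negative control lentivirus and LV-*ATF7* cells a lentivirus meant to express human *ATF7*, an activating transcription factor of the CREB family. All cells were infected for 48 hours and then kept under high-glucose (HG) conditions for 24 hours, so both groups carried virus and no library came from normal glucose. There were 3 poly(A) RNA-seq libraries per group, the sources used here do not say whether these were separate cultures, and p-values then measure only the spread between these libraries, which may be technical.

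The targeted gene went against the labels. *ATF7* was at 50.6, 46.4 and 52.2 CPM (read counts scaled to the normalised size of the library) in the LV-NC libraries and at 21.9, 25.7 and 28.0 CPM in those labelled LV-*ATF7*, a log2 fold change of −0.98 ± 0.12 (SE; adjusted p = 1.89e-04, edgeR). Directions below therefore compare libraries by their labels. Whether the labels of the groups were exchanged, or the deposited counts leave out *ATF7* made from the virus, was not tested, and with exchanged labels every direction given here would turn. Library totals ran from 16686472 to 20562768 counts. LV-NC replicate 1 stood apart from the other LV-NC libraries, being the highest of the 3 for 65 of the 83 genes. Several results that lean on it are given also without it. Of 14 keratinocyte markers, all were in the table and 10 exceeded 10 CPM in every library. Their summed level was 2455 to 3483 CPM in LV-NC and 8433 to 9121 CPM in LV-*ATF7*. *KRT5* was at 100, 355 and 344 CPM in LV-NC and at 3224, 3215 and 3622 CPM in LV-*ATF7*. *KRT14*, a basal keratin, was at only 0.375, 12.5 and 11.3 CPM and at 1.45, 1.38 and 1.82 CPM, so its groups overlapped. Not every marker went with the sum, as *KRT14*, *KRT6A*, *KRT17* and *CDH1* had lower means in LV-*ATF7*. Markers of other cells moved too: the 2 of 6 fibroblast markers in the table summed to 33.1 to 42.7 against 17.3 to 21.7 CPM, the 2 of 5 melanocyte markers to 17.5 to 24.8 against 12.2 to 13.0 CPM, the 1 of 4 immune markers to 1.51 to 1.73 against 7.09 to 9.57 CPM, and the 2 of 3 endothelial markers to 1.12 to 5.50 against 84.6 to 89.9 CPM. Within the fibroblast and melanocyte sums the markers went opposite ways. *COL1A1* (36.7 and 16.8 CPM on average) and *MITF* (18.8 and 8.13 CPM) were lower in LV-*ATF7*. *DCN* (0.553 and 2.67 CPM) and *PMEL* (2.05 and 4.51 CPM) were higher there. Most of the endothelial sum was *CDH5* (3.08 and 84.4 CPM). The part of these shifts in the results below was not tested. In bulk RNA, more cells of a type and more RNA per cell cannot be told apart.

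The start-site sequences show the feature that these genes are known for. A RefSeq start (GRCh38.p14) was matched for 66 of the 83 genes, 62 of them core genes. Each of the lines here gives the 15 bases before and the 15 bases from the start, 5′ to 3′ on the gene's strand, with the pyrimidine run that reaches the start in capitals. The first lines are genes with the largest rises in the comparison that follows. *RPL24*, the core gene with the smallest called rise over all 6 libraries, stands beside them.

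*RPL22*, chr1:6199581-6199610, minus strand: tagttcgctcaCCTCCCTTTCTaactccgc

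*RPS23*, chr5:82278340-82278369, minus strand: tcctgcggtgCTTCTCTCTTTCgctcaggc

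*RPL22L1*, chr3:170870181-170870210, minus strand: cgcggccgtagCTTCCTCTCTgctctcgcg

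*RPL24*, chr3:101686704-101686733, minus strand: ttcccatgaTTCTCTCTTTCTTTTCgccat

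All 4 carried such a run. The next lines show *RPL26* and *RPS27*, which carry a run, with their paralogs, which do not, and the paralog *RPL7L1*.

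*RPL26*, chr17:8383179-8383208, minus strand: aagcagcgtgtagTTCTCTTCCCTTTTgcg

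*RPL26L1*, chr5:172958714-172958743, plus strand: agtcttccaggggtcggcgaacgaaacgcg

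*RPS27*, chr1:153990747-153990776, plus strand: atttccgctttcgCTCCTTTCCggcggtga

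*RPS27L*, chr15:63157463-63157492, minus strand: aagttgatgccgagcgcagatcgcttgcag

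*RPL7L1*, chr6:42879601-42879630, plus strand: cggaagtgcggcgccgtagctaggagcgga

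A run of at least 5 pyrimidines from any listed start was found in 46 of the 62 matched core genes, in 1 of the 4 matched paralogs (*RPL22L1*), and in 6.50% of the 27305 genes in the promoter table. *RPL26L1*, *RPS27L* and *RPL7L1* had a purine at the start. Most core genes without a run of at least 5 were called higher as well in the comparison that follows. *RPL3*, with a run of 4, rose by 1.42 and *RPS26*, with a run of 0, by 0.56 on the log2 scale. *RPLP2* and *RPLP1*, with runs of 13 and 11, rose by 0.76 and 0.73. *RPL17* (run of 0) and *RPS10* (run of 7) were not called. Run length was not tested against the change. Among other letters searched at all listed starts on both strands, none of them contained in another, from 250 bases before to 50 bases after the start, the CRE of ATF and CREB factors, TGACGTCA, was present for 3 of 66 genes (*RPL3*, *RPL18* and *RPLP2*; 4.55%, against 2.25% of all genes) and the E-box CACGTG for 5 of 66 (7.58% against 8.77%). The ETS core CCGGAAG was present for 24 of 66 (36.4% against 12.2%) and the GC box GGGCGG for 38 of 66 (57.6% against 48.3%). These matches describe letters in a window and not binding, and a gene with a start listed elsewhere could give another run.

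Ribosomal protein genes took a larger share of the mRNA in the LV-*ATF7* libraries. They held 3.94, 3.35 and 3.17% of all counts in LV-NC and 6.91, 6.88 and 7.20% in LV-*ATF7*. The 2 groups did not overlap, and the mean rose from 3.49% ± 0.399 to 6.99% ± 0.178 (SD, n = 3), a ratio of 2.01, or 2.14 without LV-NC replicate 1. Counting error was small beside this, since the 95% Wilson interval of LV-NC replicate 1 was 3.93 to 3.95% and that of LV-*ATF7* replicate 1 was 6.90 to 6.92%. As a sum over the genes this share received no test. The large subunit genes rose slightly more than the small subunit genes in sum. The small to large ratio was 0.524, 0.548 and 0.543 in LV-NC and 0.503, 0.499 and 0.502 in LV-*ATF7*, so the groups did not overlap here either. The 6 paralogs together made up only 0.0337% ± 0.00175 and 0.0391% ± 0.00141 of counts.

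**Figure D1:**
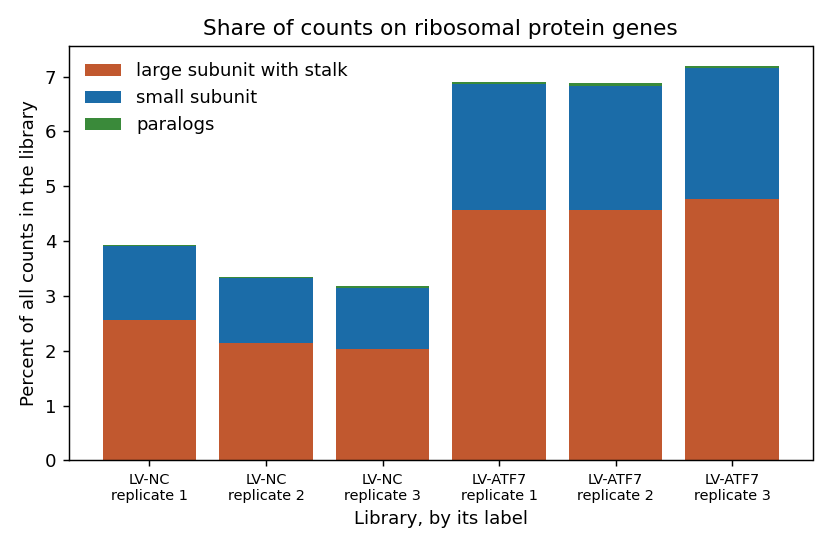
Percent of all counts that fell on ribosomal protein genes (y axis, from 0) in each of the 6 libraries (x axis), with the bars stacked by large subunit with stalk, small subunit and paralogs. The LV-NC bars reach 3.17 to 3.94% and the LV-*ATF7* bars 6.88 to 7.20%; the paralog layer is barely visible.

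Gene by gene, almost all core genes were higher in LV-*ATF7*. Of the 83 genes, all of which passed the filter on low counts, edgeR called 76 higher and 2 lower and left 5 without a call (quasi-likelihood test, threshold 0.05 after adjustment over all 12462 genes tested). Calls were common in this comparison, with 34.7% of all genes called higher and 32.9% called lower. With a fold of at least 1.5 required as well, 73 were higher and 2 lower, where 28.2% and 24.6% of all genes passed. The CPM values of the groups did not overlap for 78 genes with LV-*ATF7* higher and 3 with it lower, against 38.0% and 34.7% of all genes. The median log2 fold change was 1.19 over the 83 genes and 0.00 over all genes, and the median member lay at percentile 83.9 of all genes. Among core genes 75 of 77 rose, with quartiles of 1.05 and 1.39 on the log2 scale, so most rises lay close together. The large subunit had 45 of 46 genes higher (median 1.21) and the small subunit 30 of 31 (median 1.19).

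**Figure D2:**
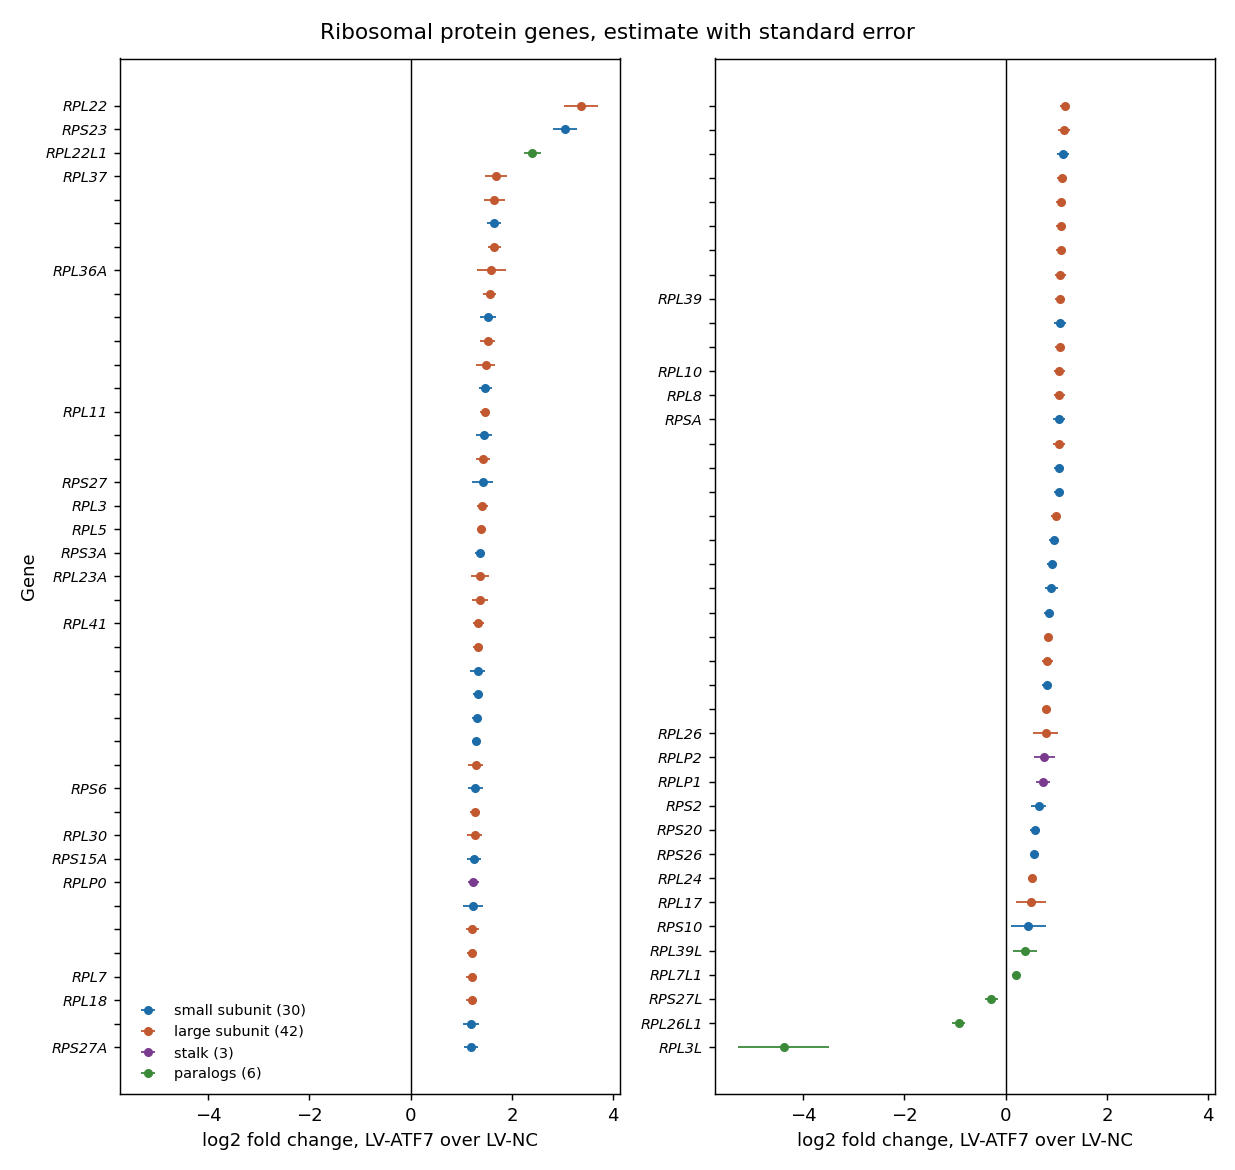
Log2 fold change, LV-*ATF7* over LV-NC (x axis), with its standard error for 81 of the 83 genes (y axis), ordered by the estimate, coloured by role and labelled where the text names them. Most points lie near 1.19, *RPL22* and *RPS23* reach past 3, and *RPL3L* and *RPL26L1* fall below 0.

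The largest rises were those of *RPL22* and *RPS23*. *RPL22*, a large subunit protein that is dispensable for translation itself and binds other RNAs, was at 17.1, 6.45 and 7.87 CPM in LV-NC and at 107, 107 and 109 CPM in LV-*ATF7*. This was a log2 fold change of 3.36 ± 0.33 (SE, adjusted p = 6.27e-05, edgeR), and 3.90 without LV-NC replicate 1. *RPS23*, a protein of the decoding centre, went from 14.1, 7.50 and 7.93 to 76.2, 85.8 and 82.6 CPM (log2 fold change 3.05 ± 0.24, adjusted p = 1.84e-05, edgeR). In both genes every LV-*ATF7* library was far above every LV-NC library, and LV-NC replicate 1 was the highest of its group. Both were weakly counted, which is taken up below.

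*RPL37*, a large subunit gene, was among the abundantly counted core genes with a large rise. It was at 362, 203 and 219.9 CPM in LV-NC and at 883, 798 and 833 CPM in LV-*ATF7* (1.68 ± 0.21, adjusted p = 2.37e-04, edgeR). The groups were apart, although LV-NC replicate 1 lay well above its 2 companions, and the log2 fold change was 1.97 without it.

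The smallest called rises among core genes were those of *RPL24*, *RPS26*, *RPS20* and *RPS2*. *RPL24*, which sits at the subunit interface, moved from 288, 286 and 279 to 402, 413 and 409 CPM (0.52 ± 0.08, adjusted p = 6.91e-04, edgeR). *RPS26*, near the mRNA exit channel, moved from 234, 251 and 247 to 346, 355 and 381 CPM (0.56 ± 0.09, adjusted p = 6.82e-04, edgeR). These small changes were precise, since the libraries of each group were close together and the groups did not overlap. *RPS20* and *RPS2* had log2 fold changes of 0.58 ± 0.10 and 0.65 ± 0.15. *RPS2* was at 1198 CPM in LV-NC replicate 1 but at 1651 and 1579 CPM in the other two.

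The stalk recruits the GTPase factors to the large subunit, and its 3 genes all rose. *RPLP0*, the anchor of the stalk, was at 1711, 1609 and 1536 CPM in LV-NC and 3666, 3704 and 4087 CPM in LV-*ATF7* (1.24 ± 0.11, adjusted p = 3.83e-05, edgeR). *RPLP1* was at 1547, 1223 and 1188 CPM and at 2086, 2055 and 2438 CPM (0.73 ± 0.14, adjusted p = 0.00205, edgeR). *RPLP2* was at 532, 322 and 302 CPM and at 609.9, 677 and 669 CPM (0.76 ± 0.21, adjusted p = 0.0122, edgeR). All 3 genes were apart between groups, *RPLP2* narrowly so because of LV-NC replicate 1, and its call ended when replicate 2 or 3 of LV-NC (adjusted p = 0.0554 and 0.0522, edgeR) or replicate 3 of LV-*ATF7* (0.0502) was left out. With LV-NC replicate 1 left out, *RPLP2* rose by 1.04.

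Several genes whose products are also known outside the ribosome rose. *RPL5* and *RPL11*, whose products bind the 5S RNA and can hold MDM2 when they are free of the ribosome, had log2 fold changes of 1.39 ± 0.09 and 1.46 ± 0.10. *RPL5* was at 293, 313 and 290.0 CPM in LV-NC and 788, 764 and 795 CPM in LV-*ATF7*, and *RPL11* was at 205, 179.9 and 176 CPM and at 492, 517 and 537 CPM. Both rises were far beyond the spread of the libraries (adjusted p = 8.19e-06 and 1.05e-05, edgeR). *RPS6*, the ribosomal substrate of S6 kinase, rose by 1.28 ± 0.15, *RPS27A*, made as a fusion to ubiquitin, by 1.19 ± 0.13, and *RPSA*, also known as the laminin receptor precursor, by 1.06 ± 0.12 on the log2 scale. Their adjusted p-values were 1.36e-04, 1.24e-04 and 1.30e-04 (edgeR).

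Of the 6 paralogs, *RPL22L1* rose, *RPL3L* and *RPL26L1* fell, and the other 3 were not called. *RPL22L1* was at 31.2, 22.9 and 19.6 CPM in LV-NC and 125, 132 and 132 CPM in LV-*ATF7* (2.40 ± 0.17, adjusted p = 1.20e-05, edgeR). *RPL26L1* was at 33.2, 41.9 and 41.2 CPM and at 19.9, 20.7 and 20.4 CPM (−0.93 ± 0.12, adjusted p = 2.78e-04, edgeR). *RPL3L*, known as the striated muscle form of *RPL3*, had only 44 counts in LV-NC replicate 1 beside 573 and 543 in the other two, and 19, 16 and 21 counts in LV-*ATF7*. In CPM these were 2.36, 30.04 and 31.4 against 1.06, 0.816 and 1.16 (−4.39 ± 0.90, adjusted p = 0.00283, edgeR). LV-NC replicate 1 was thus much closer to the LV-*ATF7* libraries than to its own group for this gene, and the log2 fold change was −4.94 without it.

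The other 3 paralogs did not pass the test. *RPS27L*, a known p53 target, was at 22.1, 27.9 and 24.0 CPM in LV-NC and 19.3, 20.7 and 20.7 CPM in LV-*ATF7* (−0.28 ± 0.13, adjusted p = 0.0780, edgeR). *RPL7L1*, a biogenesis factor related to *RPL7*, was at 191, 195 and 194 CPM and at 229, 224 and 212 CPM (0.20 ± 0.08, adjusted p = 0.0596, edgeR). Both were apart between groups, in opposite directions, by small amounts, and leaving out LV-NC replicate 1 made both pass (adjusted p = 0.00252 and 0.0313, edgeR). *RPL39L*, best known from testis, was at 9.96, 20.1 and 18.0 CPM and at 20.9, 20.9 and 20.8 CPM (0.38 ± 0.24, adjusted p = 0.186, edgeR). Its groups were also apart, but narrowly, since LV-NC replicate 2 lay just under the LV-*ATF7* libraries. LV-NC replicate 1 lay far below the other 5 libraries.

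In each of the 6 pairs the mean log2 ratio of paralog to core gene was lower in LV-*ATF7*. Such a fall was common. With libraries scaled by their summed ribosomal protein counts, 74.7% of all tested genes were called lower (edgeR). The middle gene then stood at −1.17 on the log2 scale. With all 6 libraries, the differences of *RPL7L1*, *RPL22L1* and *RPL39L* were smaller in size than this, and those of *RPL26L1*, *RPS27L* and *RPL3L* larger. Whether paralogs fell more than other genes was not tested. The log2 ratio of *RPL26L1* to *RPL26* was 1.23, 2.62 and 2.01 in LV-NC and 0.11, 0.09 and 0.36 in LV-*ATF7*, a difference of −1.77. The ratio of *RPS27L* to *RPS27* differed by −1.74 and that of *RPL7L1* to *RPL7* by −1.01. For *RPL22L1* to *RPL22* the difference was −1.07 and for *RPL3L* to *RPL3* −5.12. Without LV-NC replicate 1 the differences, in the order given from *RPL26L1* on, were −2.13, −2.07, −1.08, −1.30 and −6.31. In these 5 pairs the groups were fully apart, which gives the smallest p that 3 against 3 allows (exact permutation test, two-sided, p = 0.10; 0.12 adjusted over 6 pairs), so this test cannot reach 0.05 with 3 libraries per group. For *RPL39L* and *RPL39* the difference was −0.63 (exact permutation test, p = 0.40), or −1.03 without LV-NC replicate 1. *RPL22L1* thus rose in level, and the estimate for *RPL22* was larger. *RPL26* and *RPL22* were weakly counted and share 60.7% and 59.4% of their coding bases with other annotated genes. The ratios to them are therefore uncertain, as taken up below. The partners *RPL3*, *RPS27*, *RPL7* and *RPL39* rose by 1.42, 1.42, 1.20 and 1.07 on the log2 scale. *RPL26* rose by 0.79 ± 0.25 (adjusted p = 0.0227, edgeR), from 14.2, 6.81 and 10.2 to 18.5, 19.5 and 15.9 CPM, and by 1.06 without LV-NC replicate 1. Leaving out replicate 2 or 3 of LV-NC ended its call (adjusted p = 0.0611 and 0.0760, edgeR), as did leaving out replicate 1 or 2 of LV-*ATF7* (0.0679 and 0.0736) and plain library size scaling (0.0736).

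Scaling each library by its summed ribosomal protein counts asks which genes changed their share within the set. By this measure 14 of 83 genes passed the same threshold as higher and 17 as lower, against 10.3% and 74.7% of all genes, whose median is shifted by −1.17 by construction. The other 52 genes, all of them core, were not called, and 66 genes lay within 0.5 of 0 on the log2 scale. Past a fold of 1.5, *RPL22* (2.22 ± 0.28), *RPS23* (1.90 ± 0.20) and *RPL22L1* (1.25 ± 0.14) were among the genes that gained share. *RPL24* (−0.65 ± 0.11), *RPS26* (−0.62 ± 0.12), *RPS20* (−0.60 ± 0.12) and 5 paralogs, *RPL39L* (−0.81 ± 0.28), *RPL7L1* (−0.98 ± 0.12), *RPS27L* (−1.46 ± 0.16), *RPL26L1* (−2.11 ± 0.17) and *RPL3L* (−5.61 ± 0.93), lost share. *RPLP1* also lost share (−0.44, adjusted p = 0.00674, edgeR) while *RPLP0* did not pass (0.06, adjusted p = 0.588). These counts depended on 1 library: without LV-NC replicate 1, 30 genes were higher and 28 lower. Without LV-*ATF7* replicate 1 there were 7 and 10, and without LV-*ATF7* replicate 2 there were 9 and 8. Of the genes named here past 1.5-fold, *RPL39L* was called in 4 of 9 alternative fits and each of the others in all 9.

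**Figure D3:**
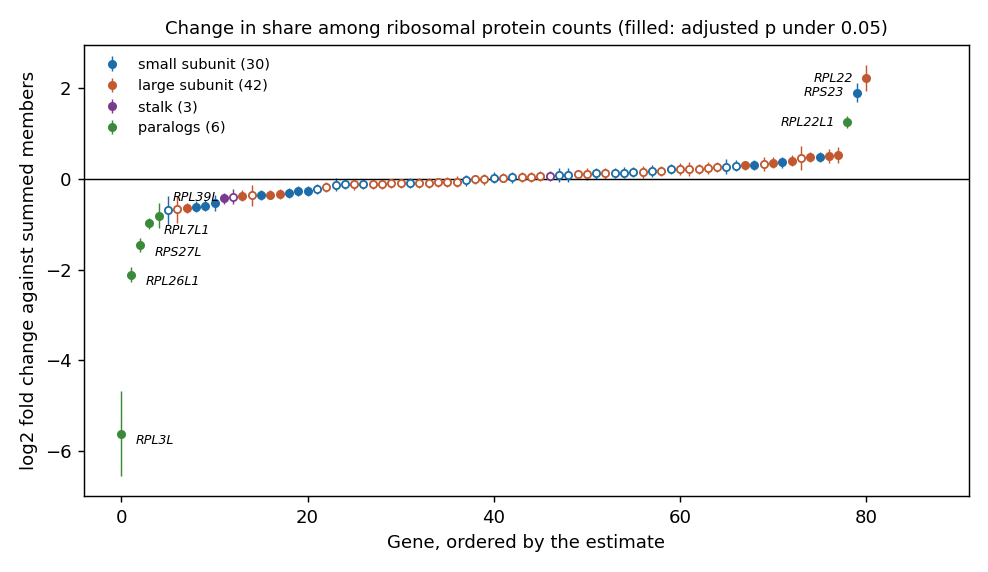
Log2 fold change with its standard error after scaling each library by its summed ribosomal protein counts (y axis) for 81 of the 83 genes in order of the estimate (x axis); filled points have an adjusted p under 0.05. Most genes lie near 0, 5 of the paralogs form the low end down to −5.61 for *RPL3L*, and *RPL22* and *RPS23* form the high end.

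Some core genes were counted at levels far under those of their partners in the ribosome. Core genes with a mean under 50 CPM over all 6 libraries included *RPL17*, *RPL23A*, *RPL26*, *RPL30*, *RPL36A*, *RPS10*, *RPS15A* and *RPS23*, and *RPL22* was just above this level. Each of these shares at least 20% of its coding bases with another annotated gene in GENCODE 29, as do *RPL10* (22.2%) and *RPS3A* (26.3%), which were counted at higher levels. *RPL17* shares 98.2% of its coding bases with genes that include the readthrough gene *RPL17-C18orf32*, *RPL36A* shares 67.3% with *RPL36A-HNRNPH2*, and *RPS10* shares 56.9% with *RPS10-NUDT3*. *RPS23* shares 57.1% with *ATG10* on the opposite strand. Both limits were chosen after these values were seen. How the counting treated reads that fit 2 genes is not given in the sources used here, so the levels of these genes are uncertain, and with them the largest core rises, those of *RPL22* and *RPS23*. The part of shared bases in their low counts was not tested. Among the 65 core genes with under 20% shared, all were higher, against 34.7% of all genes, with a median of 1.19. Reads of processed pseudogenes are a second such limit, since 77 of the 83 genes have pseudogenes that carry their name (1144 in all).

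**Figure D4:**
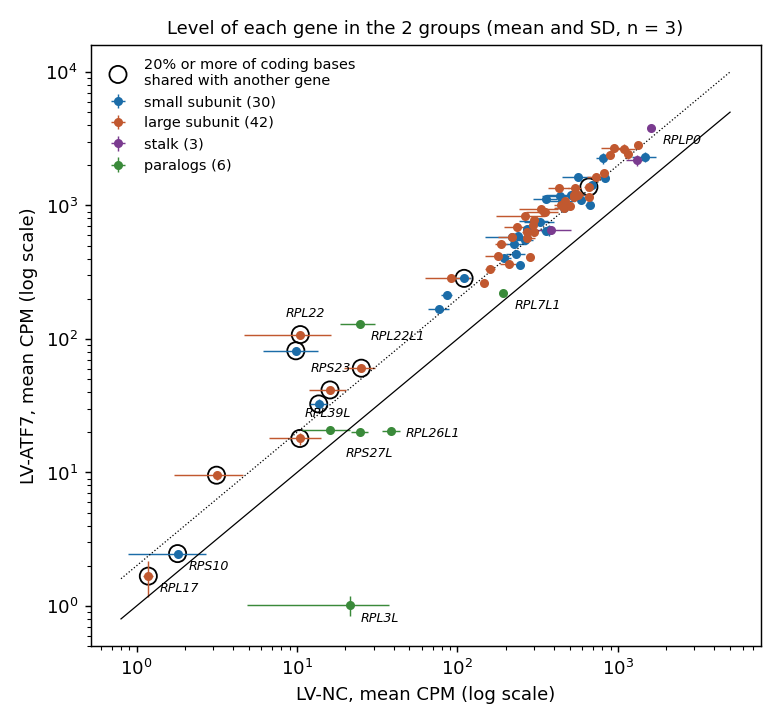
Mean CPM and SD (n = 3) of 81 of the 83 genes in LV-NC (x axis, log scale) and LV-*ATF7* (y axis, log scale), with the solid line at equal levels, the dotted line at a fold of 2 and rings round the 11 of these core genes that share at least 20% of their coding bases with another gene. Most points follow the dotted line, *RPL3L* lies far below both lines, and the core genes at the low end are ringed, while *RPL10* and *RPS3A* are ringed at higher levels.

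*RPS10* and *RPL17* were the 2 core genes with no call, and their groups overlapped. *RPS10* was at 2.84, 1.47 and 1.10 CPM in LV-NC and 2.51, 2.29 and 2.60 CPM in LV-*ATF7* (0.45 ± 0.35, adjusted p = 0.283, edgeR). Here 1 library decided the call, as *RPS10* was higher by 0.91 without LV-NC replicate 1 (adjusted p = 0.00471, edgeR). *RPL17* was at 1.18, 1.10 and 1.27 CPM and at 1.23, 1.58 and 2.21 CPM (0.50 ± 0.29, adjusted p = 0.164, edgeR).

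Per kilobase of exon, *RPS2*, *RPL8* and *RPL41* were the highest genes in LV-NC, at 612 ± 101, 538 ± 12.2 and 496 ± 48.6 CPM per kb (SD, n = 3). These neighbours did not differ beyond their spread. In LV-*ATF7* they reached 959 ± 76.9, 1119 ± 89.2 and 1253 ± 34.1 CPM per kb. *RPL17*, *RPS10* and *RPL36A* were lowest, at 0.480 ± 0.0351, 0.764 ± 0.388 and 0.795 ± 0.366 CPM per kb in LV-NC, and their spreads overlapped. The order at the top depended on the length used: per kilobase of coding sequence, *RPL41*, which has a very short reading frame, led *RPLP1* and *RPL39* in LV-NC, at 7196, 3858 and 1786 CPM per kb.

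Genes of the translation machinery outside the name rule moved in both directions. Of 21 tested TOP genes outside the name rule, 15 were higher and 2 lower, against 34.7% and 32.9% of all genes, with a median log2 fold change of 0.74. *EEF1B2*, an exchange factor of elongation, rose from 68.2 ± 11.3 to 261 ± 8.13 CPM (1.94 ± 0.13, adjusted p = 8.89e-06, edgeR), *RACK1* by 1.37 ± 0.10, *EEF1A1*, the aminoacyl-tRNA carrier, by 1.25 ± 0.11 and *EIF4B* by 1.23 ± 0.08 on the log2 scale. *FAU*, which encodes small subunit protein eS30, rose by only 0.65 ± 0.10. *EEF2*, the translocation factor, was not called (0.19 ± 0.12, adjusted p = 0.198, edgeR), and *RPL36AL*, a paralog of *RPL36A*, fell by 0.26 (adjusted p = 0.0445, edgeR). This call ended when any library but LV-NC replicate 1 was left out (adjusted p from 0.0873 to 0.124, edgeR) and with a replicate block (0.0752). *RACK1* thus rose by an amount near the core median and *FAU* by less.

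Of 35 initiation factors 13 were higher and 11 lower (median 0.13), where 34.7% and 32.9% of all genes were called, so these counts lay near the background. *EIF3E* (1.13 ± 0.10) and *EIF3H* (0.95 ± 0.08) were among those that rose. The lists share some genes, and both of these, like *EIF4B*, were also counted among the TOP genes above. Of 67 ribosome biogenesis factors 32 were higher and 10 lower (median 0.32). The most certain were *NLE1* (2.05 ± 0.10) and *RRS1* (1.76 ± 0.10), which rose, and *SBDS*, needed to release the factor that keeps subunits apart, which fell by 1.62 on the log2 scale. Genes of RNA polymerase I and ribosomal DNA transcription had 4 of 20 higher and 6 lower (median −0.07), and neither count was above the share over all genes. There *POLR1B* rose (1.08 ± 0.09), while *POLR2K*, a subunit shared by all 3 polymerases, and *RRN3*, the initiation factor of polymerase I, had log2 fold changes of −1.11 ± 0.11 and −0.67 ± 0.10. Mitochondrial ribosomal protein genes, a like set for another ribosome, had 26 of 76 higher, near the 34.7% of all genes, 16 lower and a median of 0.01, with *MRPS2* (1.20 ± 0.10), *MRPL42* (1.12 ± 0.10) and *MRPS30* (0.95 ± 0.09) the most certain. No test between the sets was run.

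Among 18 regulators of ribosomal protein mRNA, 5 were higher and 6 lower (median −0.10), against 34.7% and 32.9% of all genes. *MYC* was at 209.6, 153 and 153 CPM in LV-NC and 792, 795 and 810.4 CPM in LV-*ATF7* (2.22 ± 0.14, adjusted p = 8.27e-06, edgeR). *LARP1* rose from 284 ± 15.1 to 586 ± 14.99 CPM (1.04 ± 0.09), *PDCD4*, an inhibitor of eIF4A, rose by 1.15 ± 0.09, *LARP1B* fell by 1.73 and *MTOR* fell by 0.81 on the log2 scale. Of the 7 tested genes of ribosomal protein sensing by MDM2, 5 were higher and 1 lower (median 0.82), against 34.7% and 32.9% of all genes. *CDKN2A*, which encodes p16 and ARF, rose by 2.34 ± 0.11 and the nucleolar protein gene *NOP53* by 1.34 ± 0.10. *CDKN1A*, the cell cycle inhibitor induced by p53, fell from 861, 827 and 838 to 151, 158 and 181 CPM (−2.37 ± 0.11, adjusted p = 1.89e-06, edgeR). All of these are mRNA levels, and translation was not measured.

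**Figure D5:**
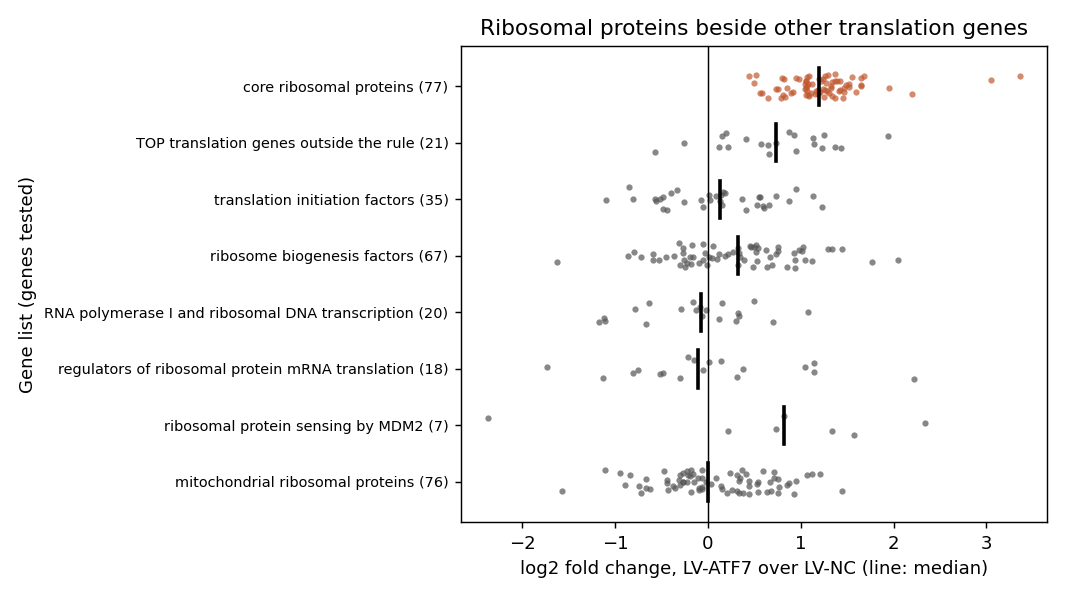
Log2 fold change, LV-*ATF7* over LV-NC (x axis), of each tested gene (points) in the core ribosomal protein genes and 7 lists of related genes (y axis, number tested in brackets), with a bar at each median. The core points gather round 1.20, the TOP genes outside the rule have a median of 0.74, and the mitochondrial ribosomal protein genes spread on both sides of 0. Some of the lists share genes.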

How the data were processed

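Poly(A) mRNA of the 6 libraries was sequenced on an Illumina NovaSeq instrument. For 12499 genes the authors deposited read counts, not normalised, and FPKM values, and the submitters' processing notes name GRCh38. The aligner, the counting program, its annotation and its use of strand are not given in the sources used here. The authors also deposited their own comparison of the groups (a fold change as a ratio, its log2 value, and raw and adjusted p-values), which was not used. The symbol was blank for 33 genes, kept under their identifiers.

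Groups follow the sample titles. Counts were filtered with filterByExpr (12462 genes and all 83 ribosomal protein genes passed), TMM-scaled, and compared by the quasi-likelihood test of edgeR 4.0.16 in R 4.3.3, with Benjamini-Hochberg adjustment over all genes tested. CPM values are TMM-normalised. DESeq2 1.42.0, limma 3.58.1 and other scalings were alternatives, and the script was tested on simulated data. Exact permutation tests used SciPy 1.17.1. Lengths, positions and shared bases come from GENCODE 29 (GRCh38), matched by identifier, and start sequences from RefSeq (GRCh38.p14). Depth of 16686472 to 20562768 counts limits genes with few counts.

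The genes, related lists and naming rule were chosen with earlier results of these data known. Named were the 6 largest called rises and the called falls (6 at most), paralogs with partners, stalk genes, *RPL5*, *RPL11*, *RPS6*, *RPS27A*, *RPSA*, the 3 highest and 3 lowest per length, uncalled genes, genes past 1.5-fold against the summed set, up to 3 genes with the lowest adjusted p of each related list with a few fixed regulators, and *ATF7*. A few genes that the rule takes are not reported here. The small called rises, *RPL10* and *RPS3A* were added after their values were seen. Same-numbered libraries did not deviate together (correlations of 0.058, −0.021 and 0.065 over all genes), so no replicate block was used.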

Additional observations from a re-analysis of the deposited data

How the results depend on the processing

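Over 15 alternative fits (other scalings, filters, tools, a replicate block and leaving out each library), 78 of the 83 ribosomal protein genes kept both direction and call, all 77 core genes kept their direction and 73 were called each time; leaving out single libraries gave 74 to 78 genes higher and 2 to 3 lower. With library size scaling the median of all genes moved by −0.16 and 75 genes were higher and 3 lower. Replicate numbers pair no libraries by their labels; with a replicate block 76 genes were higher and 2 lower as before, while calls against the summed set fell to 10 higher and 11 lower. Leaving out single libraries, those calls ran from 17 to 58 in all, 7 to 30 higher and 8 to 28 lower, highest without LV-NC replicate 1; the cause was not tested. A fold of at least 1.5 left 66 related genes called, each counted once and without the mitochondrial ribosomal protein genes. Of those 76 genes 17 were then higher and 9 lower. Over all genes 28.2% and 24.6% passed. The mean share in LV-*ATF7* was 7.48% without the 10 most abundant other genes. The median core level in LV-NC was 115 CPM per kb of exon, 742 per kb of coding sequence (an alternative chosen after seeing the data, like leaving the paralogs out of the summed set) and 41.99 in deposited FPKM, scales that differ in their lengths. A start run of at least 7 was found for 54.5% of matched genes and one of at least 5 beginning within 5 bases of the start for 86.4%, against 71.2% in the report, while the shares of all genes under these rules were 3.34%, 34.9% and 6.50%. *RPL17* and *RPS10* were under 3 CPM in every library, and the part of depth in their missing calls was not tested.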

Other observations

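Many ribosomal protein genes carry small nucleolar RNA genes in their introns, which guide the modification of ribosomal RNA. In GENCODE 29, 28 of the 77 core genes held such a gene within their bounds. Of these hosts 27 were higher in LV-*ATF7*, with a median log2 fold change of 1.20. Of the 49 core genes without one 48 were higher, with a median of 1.20 as well. Over all genes tested 34.7% were called higher. The exceptions were *RPL17*, a host, and *RPS10*. The small nucleolar RNAs themselves were not analysed here, since the libraries were made from poly(A) mRNA, and the comparison of hosts with other genes was not tested.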
